A study of Mus musculus with 2 samples.

Results

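The 78 genes described here encode the proteins of the cytosolic ribosome, measured in immune cells sorted from the mouse cochlea, the hearing organ of the inner ear. They were chosen by symbol: Rps or Rpl followed by a number and at most one of the letters a, l or x, plus Rplp0, Rplp1, Rplp2 and Rpsa, with at least 100 unique molecular identifiers (UMIs, one per captured RNA molecule) over all barcodes. The files hold 31053 genes, of which 80 carry such a symbol. Rpl10l, with 0 UMIs, and Rpl39l, with 8 UMIs, fell under the minimum. The member with the fewest UMIs was Rpl3l, with 156 UMIs in 108 barcodes, followed by Rps27l with 3439 and Rpl13a with 6363. Of the members, 31 belong to the small and 47 to the large subunit, and they lie on 19 chromosomes. Together they held 2639590 of 15753747 UMIs, which is 16.8%.

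The ribosome is built from ribosomal RNA and one copy of most ribosomal proteins, so cells make these proteins in balanced amounts and degrade those left unassembled. Many of their messenger RNAs begin with a run of pyrimidines, the 5′ terminal oligopyrimidine tract, through which mTOR signalling adjusts their translation. Neutrophils make granule proteins while they mature in the marrow and then circulate as short-lived cells with little RNA, whereas dividing progenitors of the blood and B lineages keep up ribosome production.

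All cells came from 1 droplet library of polyA RNA 3′ ends. Cochleae of 6 mice were pooled per condition, digested with Accutase and sorted for live CD45+ cells, and each condition carried its own antibody hashtag: sham, or day 3, day 7 or day 14 after noise. The sample labels name the control cells sham treated, while the series text calls them untreated. The labels give no strain, age or noise level. The kit is named v2 in one label and v3 in another. Each condition is therefore 1 pool of animals, and no test between conditions was possible.

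Of 1556 barcodes, 1285 had at least 80% of at least 10 hashtag UMIs from 1 hashtag, at least 200 genes and at most 10% mitochondrial UMIs: 341 sham, 551 day 3, 216 day 7 and 177 day 14. Median UMIs per kept barcode ran from 6528 in the sham pool to 8378 in the day 3 pool. Cell classes were gated on marker genes that include no ribosomal protein gene, and each name below stands for barcodes that are like that type. The gate placed 1143 barcodes and left 142 unplaced. Stages of a lineage were separated on a difference in the number of markers, and 106 of 488 staged neutrophils and 190 of 373 B lineage barcodes lay near those cuts. S100a8, an abundant neutrophil protein that is not a gate marker, had 85298 to 120107 CPM over the 4 pools of mature neutrophils. CPM stands for the UMIs of a gene in every 1000000 UMIs of a class and pool. Cd3e and Cd79a are markers of the gates, so their levels by class were partly fixed by the gating. Cd3e, a T cell receptor subunit, had 0 CPM in the mature neutrophil pools. Cd79a, a B cell receptor subunit, had 1203 to 1894 CPM in B cell precursors and 0 to 8.45 in mature neutrophils.

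One barcode bears on many results in neutrophils. It was gated as a mature neutrophil of the day 14 pool, had 1327 UMIs of its own hashtag and 293 of the next, and held 7064 ribosomal protein UMIs among 24019, a share of 29.4%. It alone carried 69.8% of the ribosomal protein UMIs of its class and pool. It and 3 other placed barcodes with over 20 UMIs of the next hashtag were left out of the levels and shares by class given below, a choice made after the data were seen. The tests and the values by day include them, and the counts of members called, with the values that turn on them, are also given without them.

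The sequence at the start site is shown for members at the upper end of the level kept in mature neutrophils and for some with large differences between the classes, since the pyrimidine tract is the feature these genes are known for. Each window holds 30 bases from 15 before to 15 after the RefSeq start, build GRCm38.p6, read 5′ to 3′ on the gene's strand, with the motif CTTTC in capitals.
Rps9, chr7:3704026-3704055, plus strand: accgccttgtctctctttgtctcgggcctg
Rps27, chr3:90213634-90213663, minus strand: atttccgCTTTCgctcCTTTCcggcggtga
Rpl37, chr15:5116598-5116627, plus strand: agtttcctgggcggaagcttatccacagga
Rps25, chr9:44407699-44407728, plus strand: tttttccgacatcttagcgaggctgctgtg
Rpsa, chr9:120127751-120127780, plus strand: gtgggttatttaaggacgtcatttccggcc
Rpl10a, first start, chr17:28328456-28328485, plus strand: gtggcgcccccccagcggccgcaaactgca
Rpl10a, second start, chr17:28328550-28328579, plus strand: gctctatttgagcgcatgcgcaaagcgctc
Rpl22, chr4:152325711-152325740, plus strand: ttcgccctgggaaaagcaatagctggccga
Rpl22, upstream start, chr4:152324421-152324450, plus strand: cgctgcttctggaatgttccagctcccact
Rpl12, chr2:32961697-32961726, plus strand: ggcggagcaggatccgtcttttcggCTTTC
Rpl13a, chr7:45128731-45128760, minus strand: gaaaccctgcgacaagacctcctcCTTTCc
The first 4 kept more of their level in mature neutrophils than most members and the others kept less, and both sets include windows with and without the motif. Among the 58 members with a window, 16 held CTTTC on the sense strand (27.59%), against 4.759% of 27025 genes. On the other strand the shares were 3.448% and 4.215%.

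The ribosomal protein share of all UMIs separated the neutrophils past the progenitor stage from every other gated class. In mature neutrophils it was 3.01% in the sham pool (95% exact binomial interval 2.91 to 3.11), 2.48% at day 3, 2.61% at day 7 and 2.51% at day 14. The granule-making neutrophils, which express the genes of granule proteins, had 3.46%, 3.38%, 3.29% and 4.31% in the same order, a mean of 3.6% that became 8.08% without the 20 most abundant other genes, where B cell precursors went from 22% to 24.3%. In neutrophils between both stages the shares were 1.67%, 2.53%, 4.38% and 1.69%. All of these lay far below the neutrophil progenitors, whose pools had 25.3%, 29.6%, 32.5% and 32.5% from 7, 15, 12 and 1 barcodes. The intervals cover counting error only, since cells of 1 pool and the animals within it are not counted as replicates.

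T or NK cells had the highest share of the lymphoid classes, with 29.1%, 27.6%, 29.1% and 29.2% from the sham to the day 14 pool. B cells had 22.8%, 23.6%, 23.4% and 22%, and B cell precursors outside the cell cycle 20.2%, 21.3%, 20.3% and 20.5%. The pools of these 3 classes did not overlap. Cycling B cell precursors, at 24%, 23.6%, 24.9% and 18.2%, ranged from below the non-cycling precursors, in the day 14 pool of 4 barcodes, to above the B cells. Macrophages, monocytes or dendritic cells had 21.6%, 20.6%, 18.6% and 19.2%, which overlapped the non-cycling precursors.

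**Figure D1:**
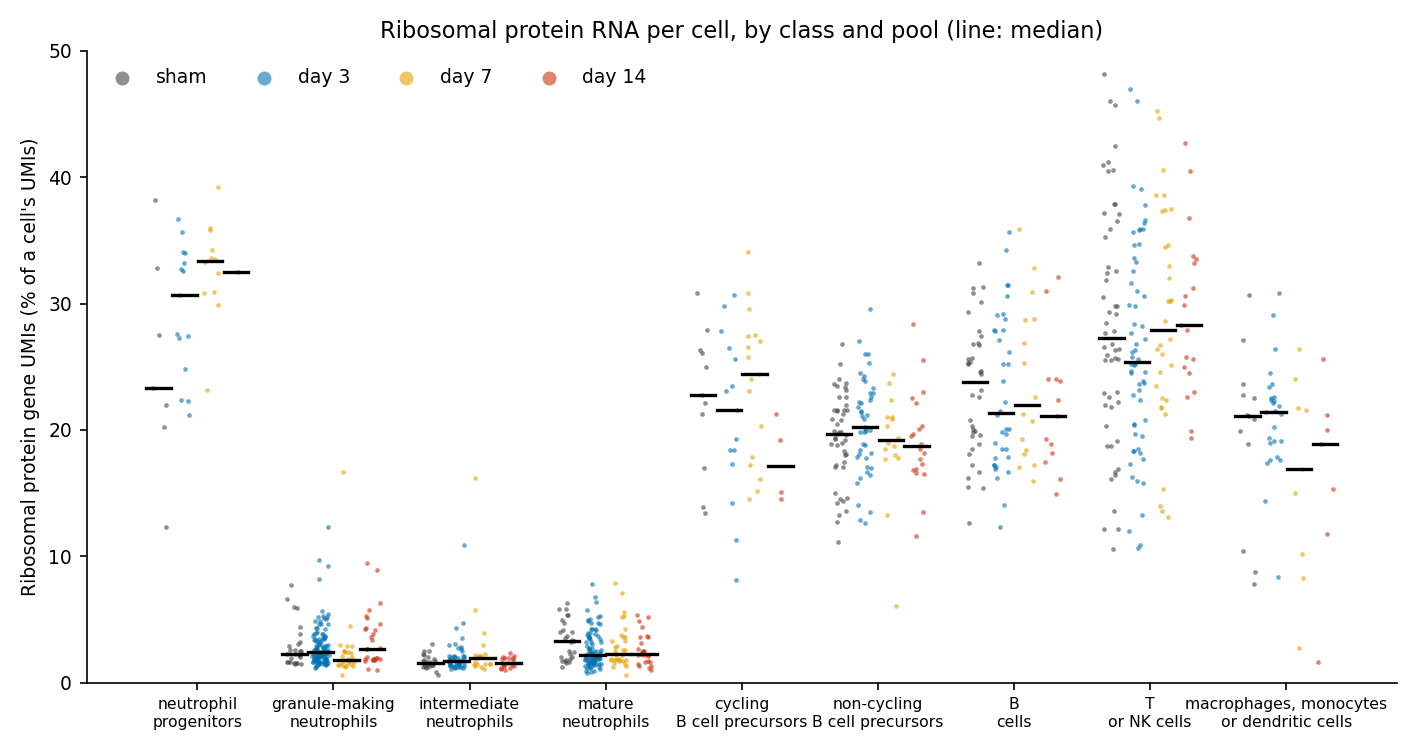
Percent of each barcode's UMIs in the 78 ribosomal protein genes, by marker-gated class and pool (points are barcodes colored by pool, lines are pool medians). The median over all barcodes of a class is 32.4% in neutrophil progenitors, between 1.68% and 2.35% in the later neutrophil stages, and 26.7% in T or NK cells.

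Single barcodes of the later neutrophil stages overlapped those of other classes at the extremes, while the other classes overlapped one another widely. The 5th to 95th percentile range was 13.6% to 42.2% in T or NK cells and 15.6% to 32.1% in B cells. It was 13.3% to 25.4% in non-cycling B cell precursors. The median barcode had a share of 2.31% among 177 mature neutrophils, with a 5th to 95th percentile range of 1.18% to 5.64%. In 35 neutrophil progenitors the median was 32.4% and the lowest barcode had 12.3%, below the highest granule-making (16.7%) and intermediate (16.2%) ones, and the lowest macrophage, monocyte or dendritic barcode had 1.65%. Depth fell with the stages: the median UMI count was 35282 in progenitors, 15380 in granule-making, 9252 in intermediate and 4430 in mature neutrophils. The median number of ribosomal protein UMIs per barcode fell with it, from 10463 to 333, 148 and 122. UMIs per barcode do not separate less RNA in a cell from less RNA captured from it.

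Within the granule-making stage the share was larger in cycling barcodes. The 28 cycling barcodes furthest toward the granule end held 5.63% of their UMIs in ribosomal protein genes, against 3.26% in the 69 non-cycling ones at the same end. Non-cycling barcodes had 2.14%, 2.09% and 2.22% over the next 3 steps of the stage score and 3% at its mature end, so the lowest values lay in the middle. Cycling barcodes were 1 of 28 granule-making neutrophils in the sham pool, 16 of 118 at day 3, 1 of 27 at day 7 and 11 of 29 at day 14. The day 7 one had a share of 16.7%. A cycling barcode among the intermediate neutrophils of that pool had 16.2%, and that class had 4.38% with it and 1.83% over the 18 non-cycling ones.

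B cell precursors and mature neutrophils were compared by edgeR's quasi-likelihood test on UMI sums per class and pool, with the pool as a block and Benjamini-Hochberg adjustment over the 7507 genes tested. Of 78 members, 76 were higher in the precursors and 1 was lower, where 40.3% of all genes tested were higher and 24.7% lower. The median log2 fold change was 2.35 over the members and 0.61 over all genes. Without the barcodes of a high second hashtag 77 were higher and 1 lower, with backgrounds of 42.1% and 24.3%, and the member median was 3.03. By subunit, 30 of 31 small and 46 of 47 large subunit members were higher. The p-values rest on the spread left after the pool block, which is estimated over all classes of the fit. The 4 pools are each of another condition, in 1 library.

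The acidic stalk recruits the elongation factors to the ribosome, and its 3 proteins Rplp0, Rplp1 and Rplp2 were all higher in B cell precursors. Rplp0, the stalk base, had 3563, 3796, 4400 and 2716 CPM in the sham, day 3, day 7 and day 14 pools of precursors and 380, 322, 366 and 238 in mature neutrophils. Its log2 fold change was 2.34 (SE 0.32, edgeR adjusted p = 5.12e-08). Rplp2 differed by 2.02 and Rplp1 by 1.88, and the pools of the classes did not overlap for any of the 3 genes.

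Rpl5 and Rpl11 bind the 5S ribosomal RNA, and when unassembled they inhibit Mdm2, the ubiquitin ligase of p53. Rpl5 had 2151, 2124, 2226 and 1904 CPM in precursors and 152, 123, 118 and 139 in mature neutrophils. The log2 difference was 2.65 (SE 0.34, edgeR adjusted p = 1.34e-08), and Rpl11 differed by 2.51 (SE 0.29). All 7 members listed at the polypeptide exit side of the large subunit were higher, with log2 fold changes from 1.55 to 2.93. Rpl39, a small protein of the exit tunnel, stood at 4142 to 5478 CPM over the precursor pools and at 343 to 456 over the neutrophil pools.

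All 14 members listed in the head of the small subunit were higher in the precursors as well, but over a wider range of log2 fold changes, 0.59 to 3.35. Rps20, at the upper end, had 4007, 4197, 4953 and 3055 CPM in precursors and 93, 98.3, 32.7 and 41 in mature neutrophils. Its log2 fold change was 3.35 (SE 0.56, edgeR adjusted p = 2.24e-06) with all barcodes and 5.33 without those of a high second hashtag. Rps19, which is mutated in Diamond-Blackfan anaemia, differed by 3.05 (SE 0.46). Rps27a, made as a fusion with ubiquitin, stood at the lower end with 0.59 (SE 0.21, edgeR adjusted p = 0.0115).

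With all barcodes the largest log2 fold changes were those of Rpl22, Rpl13a, Rps20, Rpsa and Rpl10a. This order depended on the barcodes of a high second hashtag, without which Rpl10a had the largest, at 5.98. Rpl22, on chromosome 4 from 152325742 to 152334071 in GRCm38, is a large subunit protein known for its role in lymphocyte development. It had 1954, 1858, 2027 and 1569 CPM in precursors and 67.6, 54.8, 45.8 and 57.4 in mature neutrophils, a log2 fold change of 3.42 (SE 0.44, edgeR adjusted p = 1.13e-08). Rpl13a, the subunit that interferon-gamma signalling releases to silence translation, had 716, 739, 657 and 684 against 25.4, 27.4, 39.2 and 24.6, a log2 fold change of 3.41 (SE 0.35). Both genes were low in every neutrophil pool.

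Rpsa, which also serves as a cell surface laminin receptor, and Rpl10a moved most when the barcodes of a high second hashtag were left out. Rpsa lies on chromosome 9 from 120127689 to 120132369 and had 3366, 3590, 4404 and 2617 CPM in precursors and 50.7, 54.8, 45.8 and 32.8 in mature neutrophils. Its log2 fold change was 3.33 (SE 0.62) with all barcodes and 5.67 without those barcodes, with edgeR adjusted p = 1.23e-05 and 3.59e-14. Rpl10a lies on chromosome 17 from 28328471 to 28331033 and had 1854, 1920, 2224 and 1471 against 8.45, 22.9, 19.6 and 24.6, and its log2 fold change went from 3.3 to 5.98. Of the last 200 bases of the Rpl10a transcript, 78.15% of the 50-base stretches also occur in other genes, so its reads could be shared with those copies; for Rpsa the share was 0.

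**Figure D2:**
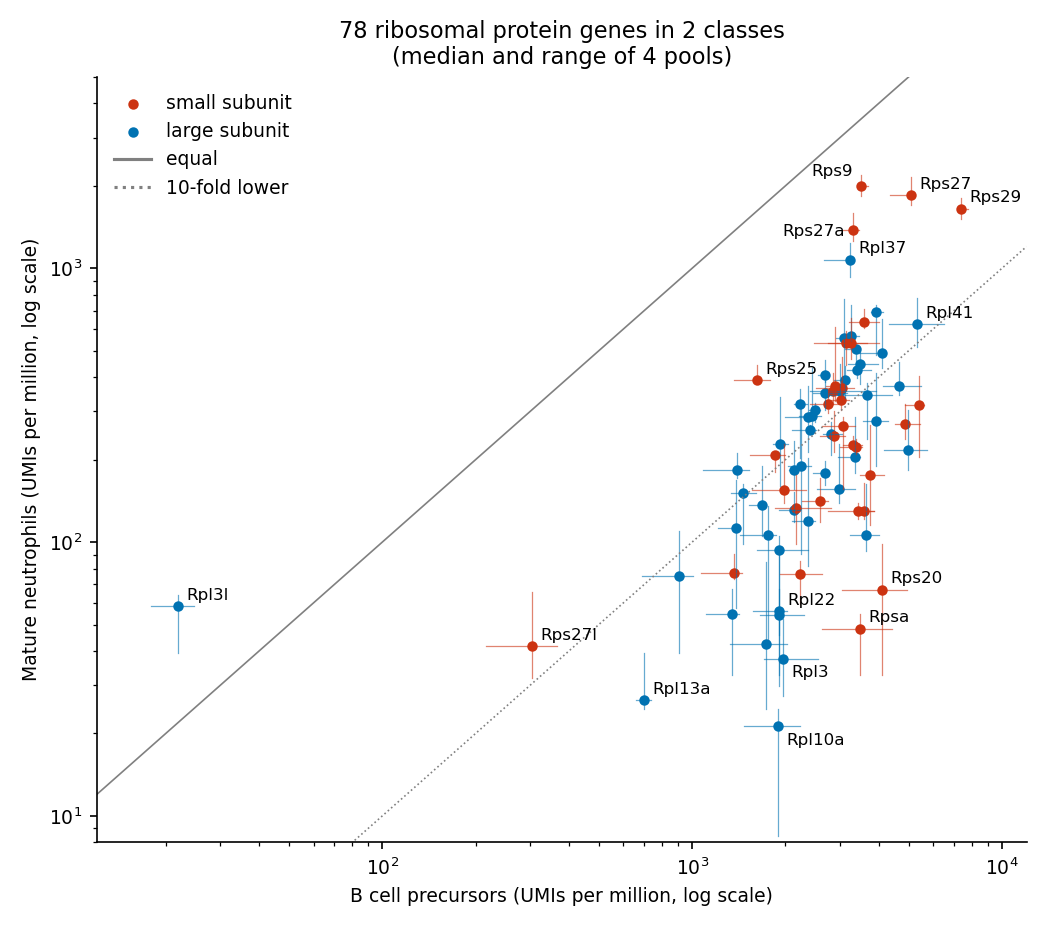
CPM of each member in B cell precursors (horizontal, log axis) and mature neutrophils (vertical, log axis); points are medians and bars ranges of the 4 pools, the solid line marks equal levels and the dotted line a 10-fold lower level in neutrophils. Rps9 is the nearest to equal among those below the line, at 54.7% of its precursor level, Rpl10a sits at 1.06%, and Rpl3l alone is above the line.

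Other members with known disease or regulatory links lay between these ends. Rps6, the substrate of S6 kinase, had 1931, 2020, 2332 and 1564 CPM in precursors and 161, 139, 229 and 148 in mature neutrophils, a log2 fold change of 2.34 (SE 0.32). Rps26 and Rps28, both mutated in Diamond-Blackfan anaemia, had 2.77 (SE 0.34) and 2.76 (SE 0.43). The X-linked Rps4x had 3.01 and Rpl10, which lies at the tRNA site and is X-linked as well, 2.03. Rpl41, the shortest ribosomal protein, had 2.2, and Rpl38, known from tail-short mice, 1.79. All 7 had adjusted p-values under 0.05 and pools without overlap.

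Rps9 was the member not called in this comparison. It is a small subunit protein on chromosome 7 from 3703993 to 3706897, and had 3699, 3484, 3470 and 3537 CPM in precursors and 2198, 1835, 1980 and 2016 in mature neutrophils. The log2 fold change was 0.21 (SE 0.2, edgeR adjusted p = 0.347), and 0.38 without the barcodes of a high second hashtag, with edgeR adjusted p = 0.0411. The precursor pools were all above the neutrophil pools in CPM. Scaling between libraries, by trimmed means of M-values, moved the median of all genes from 1.17 to 0.61 in this comparison, while the member median lay 1.74 above that of all genes with and without it. Calls are against 0, and Rps27a, at 0.59, lay below the median of all genes.

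The level a member kept in mature neutrophils, as a percent of its level in B cell precursors, spanned 51.8-fold among the 77 members other than Rpl3l. Kept compares 2 classes here and does not mean a course from one to the other. It was taken from CPM without scaling between libraries. In the scaled fit without the barcodes of a high second hashtag, Rps9 differed by a log2 fold change of 0.38. The median was 8.62%, 42 members kept under 10% and 4 kept over 30%. Rps9 kept 54.7% (52.7 to 59.4 over the pools), Rps27a 41.1%, Rps27 36.9% (32.7 to 42.5) and Rpl37 32.1%, followed by Rps25 with 24% and Rps29 with 21.3%. The lowest were Rpl10a with 1.06%, Rpsa with 1.35%, Rpl3 with 1.66%, Rps20 with 1.82% and Rpl12 with 2.36%. The members at both ends were chosen by these values, which are a description. In the last 200 transcript bases Rps25, Rpl37, Rpsa, Rps20 and Rpl12 have no 50-base stretch in common with another gene. For Rps27 all such stretches (100%) occur in other genes, for Rps27a 78.15% and for Rps9 12.58%, so the first 2 levels are less certain than that of Rps9.

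Properties of the genes followed the kept level weakly. One of them, the total UMIs, was used in the selection and includes the UMIs of both classes behind the kept level. Across the 77 members Spearman's rho was -0.17 with the length of the longest transcript, 0.25 with the total UMIs of the gene and 0.09 with the share of the transcript end found in other genes; these points share the same libraries and are no replicates. The median kept level was 7.6% in the 16 members with CTTTC at the start site and 8.62% in the 41 without it. It was 8.28% in small and 8.74% in large subunit members.

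Because members kept different parts of their level, the make-up of the ribosomal protein RNA differed between the classes. Rps9, Rps27, Rps29, Rps27a and Rpl37 made up 29.9% of all member UMIs in mature neutrophils, while the 5 most abundant members of B cell precursors made up 12.7%. In granule-making and intermediate neutrophils the top 5 held 18.2% and 23.2%, and in neutrophil progenitors 12.9%. Rps9 held 7.52% of member UMIs in mature neutrophils and 1.58% in B cell precursors, a log2 ratio of 2.25 (2.11 to 2.4 over the pools). Rps27 held 7.01% and 2.19%, and Rpl10a and Rpsa had log2 ratios of -3.45 (-4.92 to -2.94) and -3.09 (-3.38 to -2.85). For each of these genes all pools lay on the same side of 0. Part of this order was already present earlier in the lineage: in granule-making neutrophils against progenitors, the log2 ratios were 1.34 for Rps9, 1.12 for Rps27 and -1.54 for Rpl10a.

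Rps9 and Rpsa, from the upper and lower end of the kept level, show how members parted along the stages. Rps9 had 3023, 3596, 3905 and 3832 CPM in the progenitors of the sham, day 3, day 7 and day 14 pools, 954 to 1187 in granule-making neutrophils, and 1069, 1151, 1545 and 1343 in intermediate ones. Rpsa had 4752, 5163, 5806 and 5308 CPM in progenitors, 375, 340, 354 and 544 in granule-making and 38.7, 188, 647 and 15.2 in intermediate neutrophils. Rps9 pools of the intermediate stage were thus all lower than in progenitors and varied little, whereas those of Rpsa spread widely, with the day 7 pool highest. That pool holds the cycling barcode of a 16.2% share, whose part in the Rpsa level was not tested.

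**Figure D3:**
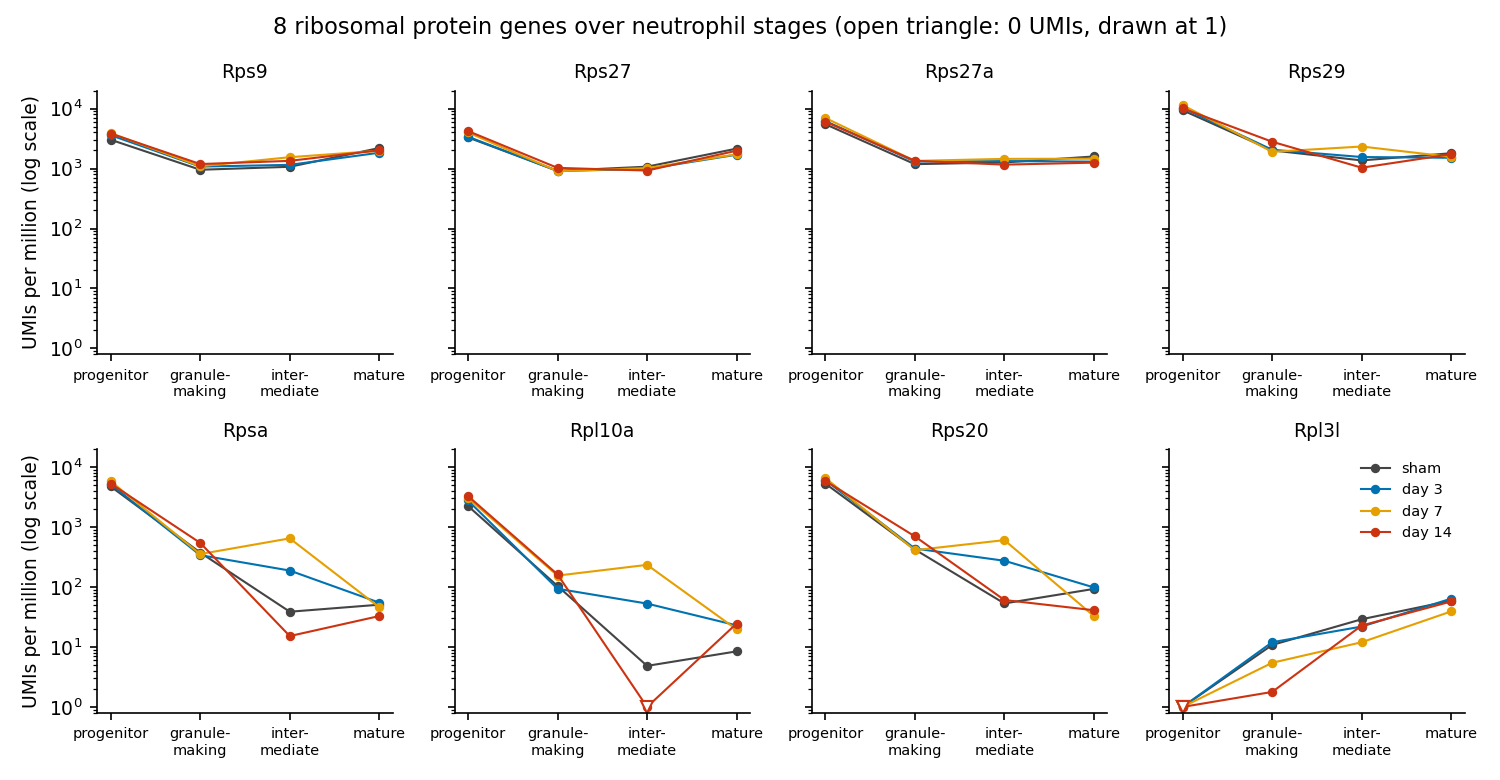
CPM (log axis) of 8 members over the neutrophil stages, 1 line per pool, with open triangles where a pool has 0 UMIs. Rps9 ends at 1835 to 2198 CPM in mature neutrophils and Rpsa at 32.8 to 54.8, while Rpl3l is at 0 in progenitors and at 39.2 to 64 in mature neutrophils.

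Macrophages, monocytes or dendritic cells, the other myeloid class, gave a similar picture against mature neutrophils, with the neutrophil pools shared by both comparisons. Here 76 members were higher and 1 lower, with 32.3% and 17.9% of all genes tested, and without the barcodes of a high second hashtag 77 were higher and 1 lower, with 35.4% and 17.7%. Rpl35, a protein beside the exit tunnel, had 2083, 1901, 1715 and 1519 CPM in this class and 135, 43.4, 105 and 107 in mature neutrophils, a log2 fold change of 3.19 (SE 0.42, edgeR adjusted p = 5.98e-08). Rpl22 had 3.48 (SE 0.44) and Rpsa 3.27 (SE 0.62). At the other end the 1 lower member was Rpl3l, with a log2 fold change of -4.06 that rests on 48 UMIs in mature neutrophils and 3 in this class. Rps27 was lowest among the small subunit members, with 3713, 3334, 4175 and 2739 CPM and a log2 fold change of 0.45 (SE 0.21). Its edgeR adjusted p was 0.0682 with all barcodes and 0.00314 without those barcodes. Rps9 had 0.49 (SE 0.2, edgeR adjusted p = 0.0365).

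Between granule-making and mature neutrophils the differences were smaller and depended on how the barcodes and libraries were treated. Of 78 members 30 were higher in the granule-making stage and 1 lower, with 22.6% and 11.9% of all genes tested. Without the barcodes of a high second hashtag 72 were higher and 1 lower, with backgrounds of 27.4% and 11.6%, and the member median went from 0.7 to 1.37. Without scaling between libraries 0 members were higher and 6 lower (edgeR, with 4 higher and 7 lower at an unadjusted p under 0.05), while the median of all genes went from 0.34 to -0.1 and 33.4% of calls were higher in place of 65.4%. Leaving out the day 14 pool gave 67 members higher, and leaving out the sham, day 3 or day 7 pool gave 4, 1 and 16. The shares of all genes called in the fits with a pool left out are not given here. Granule-making pools also differed in cycling barcodes, as given above, and their part in the result was not tested.

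Rps18, a small subunit head protein, had 301, 301, 294 and 379 CPM in granule-making neutrophils of the sham, day 3, day 7 and day 14 pools and 59.2, 70.8, 85 and 82 in mature ones. The log2 fold change was 1.45 (SE 0.43, edgeR adjusted p = 0.00762) and 2.73 without the barcodes of a high second hashtag. Rpl7a, a large subunit protein, had 1.25 (SE 0.31, edgeR adjusted p = 0.0014). Rpsa had 375, 340, 354 and 544 CPM against 50.7, 54.8, 45.8 and 32.8, yet with all barcodes its log2 fold change of 1.27 (SE 0.59) gave an edgeR adjusted p of 0.0914. Without those barcodes it was 3.69. The granule-making pools were above every mature pool for Rps18, Rpl7a and Rpsa.

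Other members had a higher CPM in the mature stage. Rps9 had 954, 1077, 1092 and 1187 CPM in granule-making neutrophils, against 2198, 1835, 1980 and 2016 in mature ones. Rps27, a zinc-binding protein of the small subunit, had 915, 910, 904 and 1026 against 2147, 1700, 1725 and 1983. The pools did not overlap, but on the scaled log2 scale, which includes the barcodes of a high second hashtag, the differences were -0.4 (SE 0.2, edgeR adjusted p = 0.109) and -0.51 (SE 0.21, edgeR adjusted p = 0.0538).

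**Figure D4:**
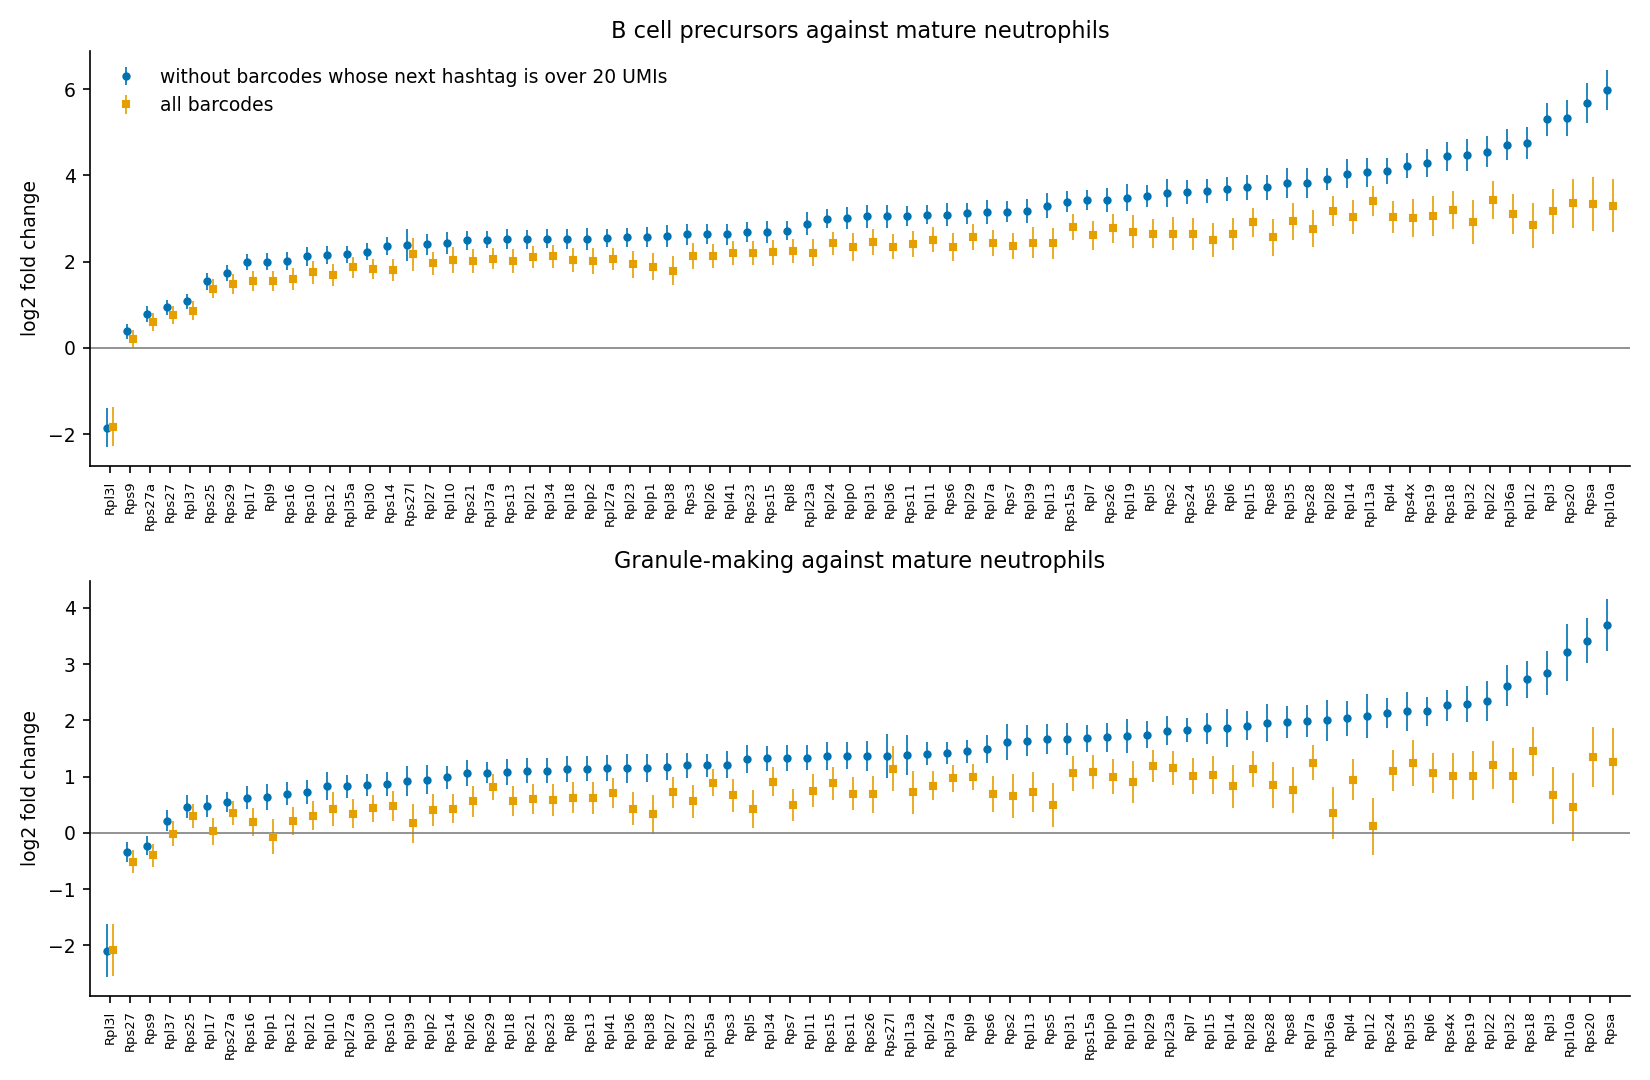
Log2 fold changes with standard errors of 76 members, for B cell precursors (top) and granule-making neutrophils (bottom) against mature neutrophils, with all barcodes (squares) and without those of a high second hashtag (circles). The circles lie above the squares for most members, with medians over all 78 of 3.03 and 2.35 in the top and 1.37 and 0.7 in the bottom comparison, and Rpl3l is lowest in both.

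Rpl3l is the form of Rpl3 known from heart and skeletal muscle, and lies on chromosome 17 from 24727820 to 24736143. It was the member that was lower in B cell precursors and in granule-making neutrophils than in mature neutrophils. In CPM it had 59.2, 64, 39.2 and 57.4 in mature neutrophils, 23.1, 17.9, 20.8 and 24.6 in B cell precursors and 10.8, 12, 5.45 and 1.78 in granule-making neutrophils. Every mature pool was above every pool of the other 2 classes, with cycling and non-cycling precursors summed. Non-cycling precursors alone had 37.3 to 53.3 CPM, which overlapped the mature pools, and cycling ones had 0 to 13.8. The log2 fold changes were -1.83 (SE 0.45, edgeR adjusted p = 0.0006) and -2.08 (SE 0.47, edgeR adjusted p = 0.000627). These rest on 48 UMIs in mature neutrophils, 39 in precursors and 31 in granule-making neutrophils, and with each barcode thinned to 1000 UMIs the gene fell below the filter on low counts and was not tested.

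Barcodes with a UMI of Rpl3l were 34 of 177 mature neutrophils (19.2%, exact binomial interval 13.7 to 25.8), 21 of 202 granule-making neutrophils (10.4%) and 18 of 128 non-cycling B cell precursors (14.1%). In T or NK cells there were 0 of 165, at a median depth of 6711 UMIs against 4430 in mature neutrophils. The exact binomial interval allows a share of up to 2.21% there, and a floor of 3 barcodes is 1.82%. Neutrophil progenitors had 0 of 35, which allows up to 10% by the exact interval, where the same floor is 8.57%. In B cells 1 of 103 barcodes had a UMI. The CPM ratio of non-cycling precursors, with 33 UMIs, to B cells, with 1, was 23.1 with an exact counting interval of 3.86 to 939.

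B cells and B cell precursors differed in few members. Of 78, 1 was higher and 2 were lower in B cells, against 8.05% and 8.55% of all genes tested, and the member median was 0.14. Without the barcodes of a high second hashtag the counts were also 1 and 2, with 8.4% and 9.03% of all genes. Without the filter on low counts 0 were higher, and leaving out the sham or the day 3 pool gave 1 lower. The shares of all genes called in those fits are not given here. The higher one was Rps27, with 8744, 8140, 8247 and 7331 CPM in B cells and 5050, 5192, 4362 and 5126 in precursors, without overlap. Its log2 fold change was 0.8 (SE 0.21, edgeR adjusted p = 0.00504). Next to it, and without a call, stood Rpl12 (0.58, SE 0.45), Rps21 (0.52), Rpl38 (0.47) and Rpl30 (0.42). At the lower end, also without a call, Rps2 had -0.66 (SE 0.36), Rpl28 -0.56 and Rpl7a -0.47. Rps2 had 1261 to 1461 CPM in B cells, which overlapped the 1183 to 1624 of non-cycling precursors, and 2300 to 3147 in cycling ones. The lower ones called were Rpl3l and Rps27l, which encodes a near copy of Rps27 and is known as a p53 target.

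Rps27l, on chromosome 9 from 66946086 to 66949516, had 94.7, 75.6, 45.4 and 135 CPM in B cells and 260, 347, 367 and 216 in precursors. The log2 fold change was -1.72 (SE 0.36, edgeR adjusted p = 0.000524), opposite in sign to that of Rps27. Its highest levels were in neutrophil progenitors, at 448 to 777, and cycling B cell precursors, at 267 to 439. Macrophages, monocytes or dendritic cells, at 182 to 453, overlapped both. In cycling B cell precursors, Rps2, Rpsa, Rps27l and Rplp1 also took larger parts of all member UMIs than in non-cycling ones, with log2 ratios of 0.87, 0.85, 0.8 and 0.6. Rps27 took a smaller part there, with a ratio of -0.72.

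In T or NK cells 10 of 78 members were higher than in B cells and 0 were lower, with 11.2% and 8.53% of all genes tested. The share of members higher was thus near that of all genes. The median log2 fold change was 0.49 over the members and 0.12 over all genes. At an unadjusted p under 0.05 the edgeR counts were 26 and 0. DESeq2 called 15 members higher and 0 lower, where it called 598 and 683 over all genes. All 3 stalk genes were among those called. Rplp1 had 6914, 6798, 6500 and 7374 CPM in T or NK cells and 3580, 3803, 3760 and 3512 in B cells, a log2 fold change of 1.08 (SE 0.3, edgeR adjusted p = 0.0059), and the pools did not overlap. Rplp0 had 0.83 (SE 0.3) and Rplp2 0.8 (SE 0.28). The largest log2 fold change was that of Rps2, at 1.1 (SE 0.36, edgeR adjusted p = 0.0241). Rps27l had 127, 149, 190 and 182 CPM against 94.7, 75.6, 45.4 and 135, a log2 fold change of 1.06 (SE 0.38, edgeR adjusted p = 0.0391) that became -0.09 with each barcode thinned to 1000 UMIs; its pools overlapped. Rpsa had 5196 to 5469 CPM against 2936 to 3365, but its adjusted p was 0.236 with all barcodes and 0.0368 without those of a high second hashtag. At the other end Rps20 had 4178 to 4299 CPM in T or NK cells and 4148 to 4599 in B cells, and Rps9 3380 to 3764 and 3414 to 4158, with overlapping pools. Without those barcodes 23 members were higher and 0 lower, with 11.6% and 8.71% of all genes. Without scaling between libraries or with a stricter gate 2 members were higher, and leaving out the sham, the day 3 or the day 7 pool each gave 1. Over all genes 670 were higher and 782 lower without scaling. The shares of all genes are not given here for unadjusted counts, the stricter gate or fits with a pool left out.

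Other genes of the translation machinery were compared in the same fit of B cell precursors and mature neutrophils, where 40.3% of all genes tested were higher in precursors and 24.7% lower, with a median of 0.61. Of 30 translation factors tested 25 were higher and 3 lower in B cell precursors, with a median log2 fold change of 1.66. The highest were the initiation factor 3 subunits Eif3e (3.84), Eif3h (3.16) and Eif3m (3.11), and the lowest were Eif4ebp1 (-1.73), which restrains cap-dependent initiation, and the start codon factor Eif1 (-1.04). Of 23 tested of 30 listed genes for ribosome assembly and ribosomal RNA synthesis, 20 were higher and 0 lower. Polr1c, a subunit of RNA polymerases I and III, had 26.9, 30.9, 30.3 and 44.3 CPM in precursors and 0 UMIs in every pool of mature neutrophils, and Rpf2, which places the 5S particle, 19.7 to 39.8 CPM and 0. In the list of mTOR and Myc control 6 of 13 tested genes were higher and 3 lower, shares near those of all genes, and without the barcodes of a high second hashtag 9 were higher; Larp1, which binds pyrimidine-tract messages, had 34.4 to 51.9 CPM in precursors and 0 to 8.45 in mature neutrophils, among the higher genes. Max, the partner of Myc, had 48.1, 53.7, 51.1 and 98.4 CPM against 186, 158, 170 and 287, a log2 fold change of -2.18.

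Across the days after noise the ribosomal protein share moved little in the lymphoid classes. In all B lineage cells together it was 20.8% in the sham pool, 22.1% at day 3, 23.2% at day 7 and 20.3% at day 14, giving ratios to sham of 1.07, 1.11 and 0.976. No member was 1.5-fold higher or lower there on any day, where 10.5%, 12.8% and 12% of all genes were higher and 5.49%, 11.2% and 9.16% lower. Among B cell precursors alone the ratios were 1.03 at day 3 and 1.1 at day 7, and B cells at day 3 had 1.03; 0 members passed 1.5-fold in any of these. The backgrounds were 10.5% higher and 8.49% lower, 12.9% and 15.8%, and 11.9% and 13%. In B cell precursors at day 7 the members farthest above sham were Rplp1 (3917 against 2745 CPM, 1.43-fold), Rps2 (1.42) and Rps27l (1.41), and the lowest were Rpl27 (0.85) and Rps27 (0.864). Cycling barcodes were 17 of the 33 precursors at day 7 and 11 of 58 in sham. They held 434112 of 527969 and 224000 of 519842 precursor UMIs. From sham to day 7 the share was 24% and 24.9% in cycling precursors, and 20.2% and 20.3% in non-cycling ones. The part of this mix in the precursor ratios was not tested. T or NK cells had ratios of 0.949 at day 3 and 1 at day 7. There 0 members passed 1.5-fold at day 3, with 13.4% and 9.9% of all genes higher and lower. At day 7, with 13.9% and 12.7%, Rps27l was 1.5-fold higher (exact interval 1 to 2.27). With 1 pool per condition these are values without a test, and the intervals cover counting error only.

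In neutrophils past the progenitor stage the share was 2.9% in the sham pool, 3.08% at day 3, 3.4% at day 7 and 4.35% at day 14. The ratios to sham were 1.06, 1.17 and 1.5, and without the barcodes of a high second hashtag the last was 1.24. At least 1.5-fold higher were 1 member at day 3, 10 at day 7 and 44 at day 14, where 15.9%, 18.8% and 21.4% of all genes were; lower were 0, 1 and 1, with backgrounds of 7.02%, 6.86% and 8.3%. At days 3 and 7 the share of members higher was thus below that of all genes. Without those barcodes 7 of 78 members were higher at day 14. The median log2 ratio was then 0.36 over the members and 0.05 over all genes. The share of all genes past 1.5-fold is not given for that setting, nor for the HTODemux counts that follow. With HTODemux assignment of the hashtags 7, 27 and 13 members passed 1.5-fold in either direction at days 3, 7 and 14, and with a stricter gate the day 7 share ratio was 0.954. The day 3 member was Rps27l, at 1.53-fold (1.06 to 2.27).

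With all barcodes Rpl10a, Rpl12 and Rpl3 had the highest ratios to sham at both later days. Rpl10a had 62.6 CPM in sham neutrophils, 144 at day 7 and 210 at day 14, and the last value was 115 without the barcodes of a high second hashtag. Rpl12, a large subunit protein near the stalk, had 85.2, 167 and 244, and 132 at day 14 without them. The ratios to sham were 2.3 for Rpl10a and 1.96 for Rpl12 at day 7, followed by Rpl3 (1.93), Rpl13a (1.82) and Rpl39 (1.66). At day 14 they were 3.35, 2.87 and, for Rpl3, 2.76, followed by Rps20 (2.42) and Rpsa (2.29). Without the barcodes of a high second hashtag the day 14 ratios of Rpl10a, Rpl12, Rpl3, Rps20 and Rpsa were 1.81, 1.53, 1.67, 1.8 and 1.61, and Rps27l was highest at 1.93. Rpl3l was the lower member at both days, with 10 and 11 UMIs against 18 in sham, and its counting intervals included 1. The pools differed in their stages, with 35.4% granule-making barcodes in sham neutrophils, 46.1% at day 3, 34.2% at day 7 and 39.2% at day 14, and in the cycling barcodes given above. The part of either in these ratios was not tested, and among mature neutrophils alone the share was 3.01% in the sham pool and 2.48% to 2.61% after noise.

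**Figure D5:**
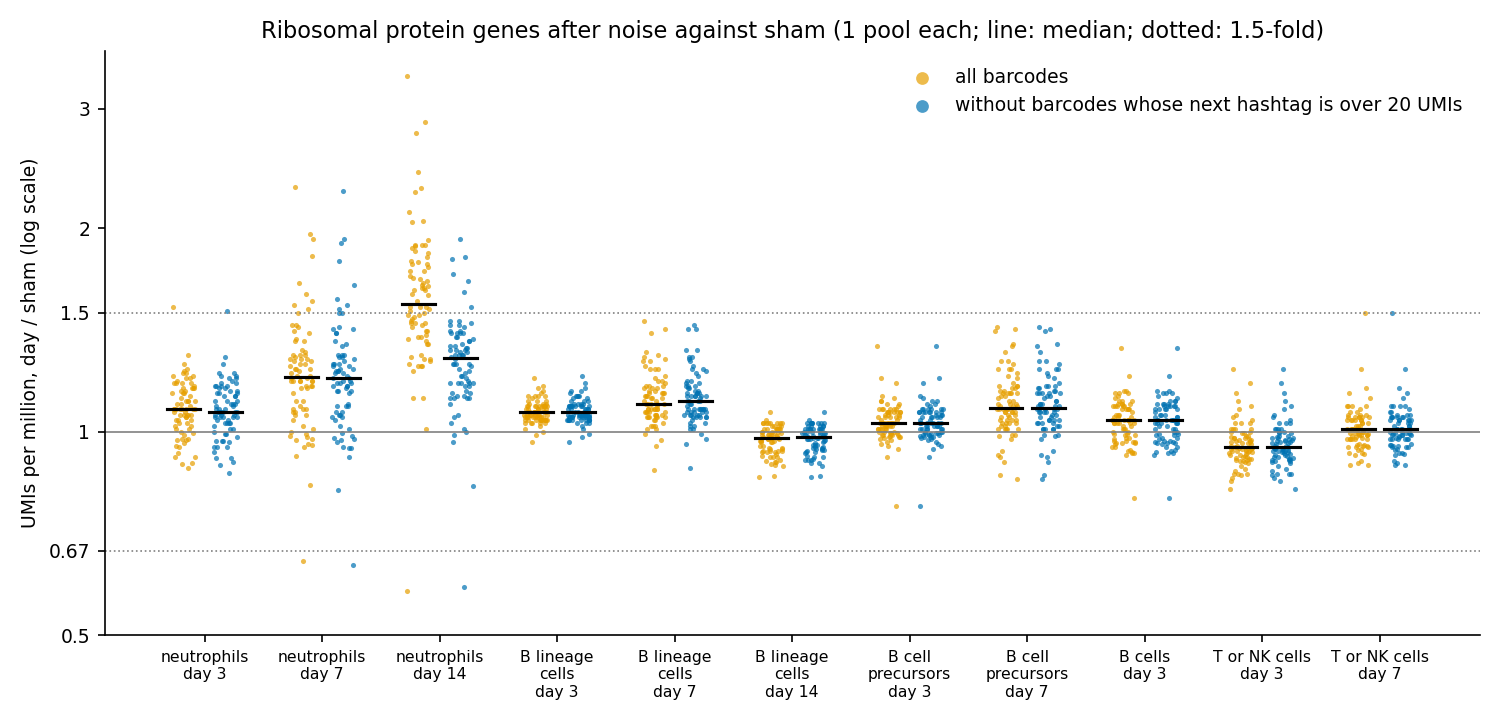
Ratio to the sham pool of each member's CPM (log axis) by lineage and day after noise, with all barcodes and without those of a high second hashtag (points are members, solid lines medians, dotted lines 1.5-fold). In neutrophils at day 14, 44 members are at least 1.5-fold higher with all barcodes and 7 without, while B lineage members stay within 1.5-fold.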

How the data were processed

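Raw UMI counts of RNA and of hashtags were deposited as 2 matrices over the same 1556 barcodes; per the file headers they were made with Cell Ranger 3.1.0, and per the submitters' processing notes the genome build was mm10. No label or header states the rule that picked these barcodes as cells. The 78 members, the marker and gene lists and the tests were chosen with earlier results of these data known. Hashtag rule, filters and marker gates are given in the report; doublets were handled by the hashtag rule and the gate only, and no caller was run. Gene coordinates are from GENCODE (GRCm38), where all 78 members matched, and start sites from RefSeq, where 58 did.

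Shares have exact binomial (Clopper-Pearson) and ratios exact conditional Poisson 95% intervals. UMI counts were summed per class and pool (at least 5 barcodes, 37 sums) and tested with edgeR 4.0.16 (TMM scaling, low-count filter, pool block, 23 residual degrees of freedom, Benjamini-Hochberg adjusted p under 0.05); DESeq2 1.42.0 and Seurat 5.3.0 (HTODemux) served as alternatives. SE is the size of the log2 fold change over the square root of F. The edgeR step was tested on simulated counts. Members named are 23 of known role, the 5 highest and 5 lowest log2 fold changes of a comparison, the members past 1.5-fold (or 3 at each end) per day, and those whose part of member UMIs differed most; values of the rest are ranges or counts, and 2 members are not reported singly here. Between conditions, called means at least 1.5-fold with at least 20 UMIs over both pools; with 1 pool per condition there is no test. The classes of 1 pool share its animals, hence the block.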

Additional observations from a re-analysis of the deposited data

Results flagged for a closer look

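The ribosomal protein share moved in opposite directions from sham in different lineages, and these differences were not tested, since each condition is 1 pool. Some directions turned under other settings. At day 3 the ratio to sham was 1.06 in neutrophils and 1.07 in B lineage cells but 0.949 in T or NK cells. Thinned to 1000 UMIs the neutrophil ratio was 0.995, and mature neutrophils alone went from 3.01% to 2.48%. At day 14 the ratio to sham was 1.5 in neutrophils and 0.976 in B lineage cells, the last being 1 with HTODemux pools. Without the barcodes of a high second hashtag the day 14 neutrophil ratio was 1.24.

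The 142 kept barcodes outside every gate entered no comparison, and ribosomal protein genes held 26.5% of their UMIs, or 27.6% without the barcodes of a high second hashtag.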

How the results depend on the processing

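Of the values for single members under the alternatives, 826 kept their direction and side of the threshold, 37 gained a call, 75 lost one and 10 reversed; of the main values of comparisons 202 stayed and 64 moved, and of other values 97 stayed, 42 moved and 4 reversed. The causes were not tested. The comparison of granule-making with mature neutrophils moved most. Its 30 members higher became 0 without TMM, 70 with HTODemux pools, 17 with a stricter gate, 72 without barcodes of a high second hashtag (chosen after seeing the data, as was thinning in the tests), and 1 to 67 when 1 pool was left out. Its 1 lower became 6 without TMM, 2 with TMM without the members, 3 with DESeq2 and 2 with no replicate block. Without the replicate block that pairs classes by pool, 28 members were higher there, and no other count of calls moved by over 1.5 times. For B cells against precursors, 1 higher became 3 with DESeq2, 0 without the filter and 5 thinned to 1000 UMIs, and 2 lower became 0 thinned and 1 to 2 with a pool left out. For T or NK against B cells, 10 higher became 2 without TMM, 16 without the filter, 29 with HTODemux pools, 2 with a stricter gate, 23 without the high second hashtags and 1 to 10 with a pool left out. The 1 lower member against mature neutrophils became 0 when thinned, for B cell precursors and for macrophages, monocytes or dendritic cells.

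Some log2 fold changes reversed. Rps9 in precursors ranged from -0.06 without the sham pool to 0.39 without the day 14 pool. In granule-making neutrophils Rpl10a (0.46) became -0.09 without TMM, -0.04 with a stricter gate, and -0.00 without the day 3 to 3.14 without the day 14 pool. Rplp1 (-0.07) became 0.03 without the filter, 0.54 with HTODemux pools, 0.64 without the high second hashtags, and -0.31 without the day 7 to 0.62 without the day 14 pool. Thinned, Rps2 in B cells went from -0.66 to 0.01 and Rps27l in T or NK cells, called at 1.06, to -0.09.

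The mean share of 4 pools went in granule-making neutrophils from 3.6% to 2.95% as a mean per barcode, 8.08% without the 20 most abundant other genes and 2.91% thinned. In B cell precursors it went from 22% to 24.3% without those genes and 20% thinned. In B cells it became 24% with a stricter gate, 24.3% without mitochondrial genes and 26.6% without the 20 genes. In T or NK cells it became 29.9% and 32.4% by the last 2, and 27.9% thinned. In macrophages, monocytes or dendritic cells it became 18.3% per barcode, 22.6% without the 20 genes and 18.4% thinned. Rpsa held 1.25% of member UMIs in precursors when thinned, against 1.57%.

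Members past 1.5-fold in neutrophils were 7 at day 3, 27 at day 7 and 13 at day 14 with HTODemux pools, 0 at day 3 and 1 at day 7 with a stricter gate, 6 at day 7 without the 20 genes, 8 at day 3 and 14 at day 14 thinned, and 8 at day 14 without the high second hashtags. With HTODemux pools they were 2 in B lineage cells at day 7, and 3 and 4 in B cell precursors at day 3 and 7; thinned they were 1, 2 and 2. Thinned, B cells had 2 at day 3 and T or NK cells 2 at day 7, where HTODemux pools and both smaller denominators gave 0; a stricter gate gave T or NK cells 1 at day 3. Ratios of shares that crossed 1 were those of B lineage cells at day 14 (1 with HTODemux pools), neutrophils at day 7 (0.954 with a stricter gate) and thinned at day 3 (0.995), and B cells at day 3 thinned (0.997).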

Other observations

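Ribosomal proteins whose symbols fall outside the naming rule ran from log2 fold changes of 0.09 to 3.55 between B cell precursors and mature neutrophils, and the members from -1.83 to 3.42. Fau, made as a fusion of a ubiquitin-like protein and a small subunit protein, had 4457 to 5016 CPM in B cell precursors and 2992 to 3322 in mature neutrophils, with a log2 fold change of 0.09 (SE 0.2, edgeR adjusted p = 0.714). Rps3a1, a small subunit protein, had 4255 to 4830 CPM against 314 to 375, a log2 fold change of 2.55. Rack1, the scaffold protein on the small subunit head, had 1904 to 2235 against 52.3 to 73.8, a log2 fold change of 2.94. In all, 7 of 8 such genes were higher in the precursors and 0 were lower.

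Of 69 tested mitochondrial ribosome genes 60 were higher and 1 was lower in B cell precursors than in mature neutrophils, against 40.3% and 24.7% of all genes tested. Mrpl3, a large subunit protein, had 48.1, 53.7, 83.3 and 34.4 CPM in the precursor pools and 0 UMIs in every mature neutrophil pool. The lower one was Mrpl33, with 119, 169, 165 and 133 CPM in precursors and 718, 670, 752 and 770 in mature neutrophils, a log2 fold change of -2.76 (SE 0.25, edgeR adjusted p = 9.34e-13). Mrpl33 was also higher in T or NK cells than in B cells, by 1.65 (SE 0.3, edgeR adjusted p = 4.33e-05). Between B cells and their precursors 11 of 69 mitochondrial ribosome genes were lower in B cells and 0 higher, against 8.55% and 8.05% of all genes tested.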
